A study of Oryza sativa Indica Group with 226 samples.

Results

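ZIP proteins (named after the yeast and Arabidopsis ZRT and IRT transporters) are membrane carriers that bring zinc, and in some members iron or other divalent metals, into the cytosol. Plants use them to take zinc up from the soil, to load it into and unload it from the vascular tissue, and to share it between growing organs, and many members respond to zinc supply. The genes described here are those that a rice reference table lists under the names ZIP1 to ZIP10, matched by symbol or synonym with the species prefix and letter case ignored. All 10 genes were found in the table, 8 of them (ZIP1 to ZIP8) had a probe set in the annotation of the array, and each of these 8 probe sets had a mean log2 level of at least 5 over all arrays, so 8 of the 27735 tested probe sets are ZIP members. ZIP9 and ZIP10 have no probe set under that annotation and were not analysed here. ZIP1 lies on chromosome 1, ZIP2 on chromosome 3, ZIP3 on chromosome 4, ZIP5, ZIP6 and ZIP7 on chromosome 5, ZIP8 on chromosome 7 and ZIP4 on chromosome 8 of assembly ASM3414082v1. ZIP9, which is not measured, is the immediate neighbour of ZIP5 in the gene order. Names of this family overlap between sources: the gene called ZIP5 here is also listed as ZIP2, that called ZIP7 also as ZIP3, and that called ZIP8 also as ZIP1.

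The study profiled shoots of 110 recombinant inbred lines, each fixed for its own mixture of the genomes of the indica rice varieties Minghui 63 and Zhenshan 97, and of both parents. Seedlings were untreated and grown in darkness until 72 h after germination. Each line was measured on 2 arrays, numbered replicate 1 and replicate 2 and labelled as biological replicates, and each parent on 3 arrays, which makes 226 Affymetrix Rice Genome arrays. The labels do not say whether plants were pooled, or whether arrays with the same replicate number share a day. The values are log2 expression levels, 1 for each probe set and array. Levels of different members were not set against each other, since each probe set has its own response.

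All 9 measured shoot markers had mean levels of at least 5, with a list mean of 9 to 10.69 over the arrays. Of the root markers 3 of 6 reached 5 (list mean 5.09 to 6.98), and of the seed and scutellum markers 3 of 8 (3.73 to 5.4). The root markers that reached 5 were Lsi1 (8.45), PHT1;8 (7.96) and TIP2;1 (6.14). Those of seed and scutellum were LEA3 (7.53), the storage protein gene GluA2 (6.61) and RAG1 (5.02). Other seed markers, among them the storage protein genes GluA1 and GluB4 and the amylase gene AMY1A, were near background at 2.3, 3.17 and 2.06. The root markers Lsi2 (3.53), WOX5 (4.7) and CASP1 (4.91) did not reach 5. Transcripts of some listed seed and root markers were thus not absent from these samples, while others were low. For comparison, 17 control probe sets for artificial tags had means of 2.4 to 4.63 over all arrays. RNA integrity was read from the 3′ minus 5′ signal of 4 rice control transcripts, which rises when the 5′ end is under-represented. It ran from 0.28 to 1.22 (median 0.49) over the replicate 1 arrays of the lines and from 0.43 to 3.25 (median 0.71) over the replicate 2 arrays, 28 of which lay above every replicate 1 array. The 6 parent arrays lay between 0.6 and 1.22. Arrays of the lines were matched over 1981 probe sets with a log2 difference between the parental means of at least 1, called or not. In 9 of 110 lines the replicate 1 array correlated better with the replicate 2 array of another line than with its own. The line values of these lines and their partners had r of 0.778 to 0.928. Line values include the arrays in doubt, so this r cannot show that the arrays are labelled rightly. RIL215 had the lowest r with its own array, 0.388, against 0.67 with that of RIL112. In whole shoots, fewer cells of a type and less transcript in each cell cannot be told apart.

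The first comparison asked which members the parents express at different levels. ZIP3 was higher in Minghui 63, and ZIP4 and ZIP5 were higher in Zhenshan 97. ZIP3 is a zinc carrier known for unloading zinc from the xylem in the nodes. ZIP4 is a zinc carrier of vascular cells known for sharing zinc between tillers and panicles, and ZIP5 is a root zinc uptake carrier. These 3 of 8 members were called by limma at an adjusted p under 0.05, against 10.5% of all tested probe sets, with 1 higher in Minghui 63 (background 4.93%) and 2 higher in Zhenshan 97 (background 5.59%). The median difference over the 8 members was -0.38 (Minghui 63 minus Zhenshan 97, log2), and over all tested probe sets it was 0.04. Tissue markers moved with the parents as well. The shoot marker mean was 9.47 to 9.51 in Minghui 63 and 9.95 to 10.22 in Zhenshan 97, with 6 of 9 shoot markers called higher in Zhenshan 97 and 2 higher in Minghui 63, and the seed and scutellum marker mean was 4.39 to 4.42 and 4.58 to 4.8. Their part in the differences of the ZIP members was not tested. For 6 of 8 members the arrays of the parents did not overlap, as was the case for 32.3% of all tested probe sets.

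ZIP3 measured 9.07, 9.69 and 9.09 in Minghui 63 and 7.44, 8.17 and 8.05 in Zhenshan 97. Every Minghui 63 array lay above every Zhenshan 97 array, and the difference of the means was 1.40 on the log2 scale (SE 0.26, n = 3 and 3, adjusted p = 0.0162 by limma), or 2.63-fold. ZIP4 measured 7.97, 8.04 and 8.13 in Minghui 63, a spread of 0.08 (SD), and 9.68, 9.63 and 8.71 in Zhenshan 97, where the third array was lower than the other two. The difference was -1.29 (SE 0.27, adjusted p = 0.0247 by limma), that is 2.45-fold higher in Zhenshan 97. ZIP5 measured 5.57, 5.68 and 6.03 against 6.54, 6.87 and 7.04, a difference of -1.06 (SE 0.19, adjusted p = 0.0161 by limma) or 2.08-fold higher in Zhenshan 97, again with no overlap. These 3 calls rest on few arrays. That of ZIP3 was lost without Minghui 63 replicate 2, that of ZIP5 without Minghui 63 replicate 1 or 2 or Zhenshan 97 replicate 2, and that of ZIP4 without any one of Minghui 63 replicates 1 and 2 and Zhenshan 97 replicates 1 and 2 (adjusted p of 0.0613 to 0.0931, limma). With all 226 arrays in the fit none of the 3 was called (adjusted p = 0.108 for ZIP3, 0.0668 for ZIP4 and 0.504 for ZIP5, limma), and with replicate number as a block ZIP4 was not (0.089).

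ZIP2 and ZIP8 were also higher on every Zhenshan 97 array without passing the test. ZIP2 measured 5.61, 5.9 and 5.89 in Minghui 63 and 6.3, 7.76 and 8.55 in Zhenshan 97 (difference -1.74, 95% interval -2.93 to -0.55, adjusted p = 0.0754 by limma). Its Zhenshan 97 arrays spread over more than 2 log2 units, and without the lowest of them, replicate 1, the difference was -2.36 with an adjusted p of 0.00594. ZIP8, which carries zinc and has been placed at the plasma membrane, measured 4.8, 4.63 and 4.99 against 5.22, 5.7 and 5.68 (difference -0.73, interval -1.16 to -0.29, adjusted p = 0.0506 by limma). The Minghui 63 values of ZIP8 lie close to the upper end of the tag controls, so a fold change of ZIP8 is not given.

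ZIP6 and ZIP7 differed little between the parents. ZIP6, which carries ferrous iron, cobalt and cadmium when it is expressed in frog oocytes, measured 8.51, 8.57 and 8.52 in Minghui 63 and 8.36, 8.25 and 8.18 in Zhenshan 97 (difference 0.27, interval -0.03 to 0.57, adjusted p = 0.241 by limma). ZIP7, known for loading zinc into the xylem in roots and nodes, measured 7.74, 7.77 and 7.48 against 7.08, 7.61 and 7.52, with overlapping arrays (difference 0.26, interval -0.18 to 0.7, adjusted p = 0.439).

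ZIP1 was the member with the most unequal Zhenshan 97 arrays. ZIP1 is a zinc transporter for which export of zinc, copper and cadmium from rice cells has been described. It measured 6.98, 7.04 and 6.84 in Minghui 63 (SD 0.1) and 4.28, 7.63 and 9.04 in Zhenshan 97 (SD 2.45). The first Zhenshan 97 array lay within the range of the tag controls, and the third lay above all 220 arrays of the lines, of which the highest was 7.05. The spread in Zhenshan 97 ranked 17th of the 27735 tested probe sets, and that of ZIP2 ranked 202nd. The parental means differed by -0.03 with an interval of -2.5 to 2.44 (adjusted p = 0.992 by limma), and the sign of the difference changed when Zhenshan 97 replicate 2 (0.29) or replicate 3 (1.0) or Minghui 63 replicate 3 (0.03) was left out, so no parental direction can be given for ZIP1. The 3′ minus 5′ signal of the 3 Zhenshan 97 arrays was 0.72, 0.6 and 1.22, and their seed marker mean was 4.79, 4.8 and 4.58; whether either has a part in the spread of ZIP1 was not tested.

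**Figure D1:**
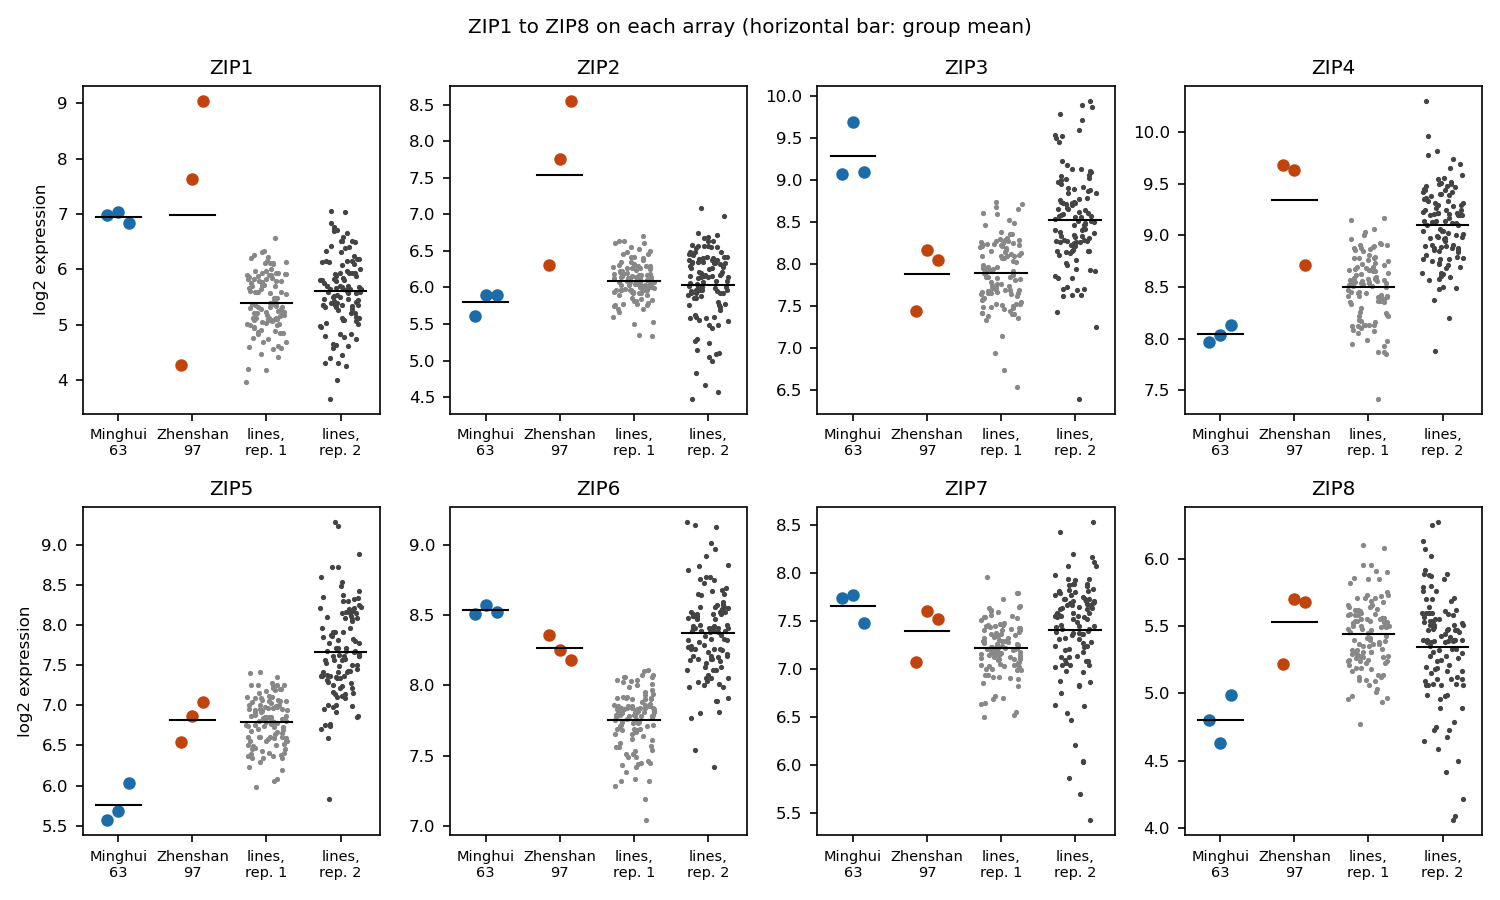
Log2 expression of ZIP1 to ZIP8 on each array of Minghui 63 (3 arrays), of Zhenshan 97 (3 arrays) and of the 110 lines in replicate 1 and in replicate 2; bars are group means and the vertical scale differs between panels. ZIP3 is separated in the direction of Minghui 63 and ZIP4 and ZIP5 in that of Zhenshan 97, the Zhenshan 97 arrays of ZIP1 run from 4.28 to 9.04, and ZIP5 and ZIP6 lie higher in replicate 2 of the lines than in replicate 1.

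The second comparison asked how far the members vary between lines, within replicate number. The 110 line means were compared by a moderated F test that carries replicate number as a block. The size of the line effect is given as repeatability, the mean square between lines minus that within lines over their sum, which is 1 when both arrays of each line agree fully and near 0 when lines vary no more than their replicates. ZIP1, ZIP5 and ZIP7 were called between lines, that is 3 of 8 against 16% of all tested probe sets. ZIP1 alone reached a repeatability of 0.5 (1 of 8 against 4.49%). The median repeatability of the 8 members was 0.15, and that of all tested probe sets was 0.06.

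ZIP1 ranged from 3.97 to 6.56 (median 5.36) over the lines in replicate 1 and from 3.67 to 7.05 (median 5.64) in replicate 2. Both replicates ordered the lines alike, with a Pearson r of 0.60 and a Spearman rho of 0.64 between them, and the repeatability was 0.58 (adjusted p = 1.23e-10, moderated F test), higher than that of 96.7% of tested probe sets. The highest line means were those of RIL238 (5.94 in replicate 1 and 7.05 in replicate 2) and RIL027 (6.56 and 6.42). The lowest were those of RIL139 (4.76 and 3.67) and RIL039 (3.97 and 4.65). The line means ran from 4.22 to 6.50 without a gap wider than 0.21. The lowest of them lie within the range of the tag controls.

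ZIP7 ranged from 6.5 to 7.96 (median 7.22) in replicate 1 and from 5.43 to 8.53 (median 7.53) in replicate 2, with an r of 0.39 between replicates and a repeatability of 0.32 (adjusted p = 0.00253, moderated F test). ZIP5 ranged from 5.98 to 7.42 (median 6.82) and from 5.83 to 9.28 (median 7.62), with an r of 0.38 and a repeatability of 0.31 (adjusted p = 0.00269, moderated F test). The spread of ZIP7 and ZIP5 between lines was 1.94 and 1.87 times as large in replicate 2 as in replicate 1. The call of ZIP5 depends on the block: with no replicate block its repeatability was -0.30 (adjusted p = 1), since its shift between replicate numbers then counts as variation within lines, whereas ZIP1 (0.54, adjusted p = 1.69e-08) and ZIP7 (0.26, adjusted p = 0.0456) remained past the threshold and made 2 of 8 members against 6.01% of all tested probe sets.

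The other members could not be told apart from variation between replicates. ZIP3 had a repeatability of 0.17 (adjusted p = 0.128, moderated F test), ZIP8 of 0.13 (0.28), ZIP6 of 0.10 (0.405), ZIP2 of 0.05 (0.537) and ZIP4 of 0.04 (0.557), with an r between replicates of 0.04 to 0.18. ZIP3 and ZIP4, which differ between the parents, are thus not called between their descendants, whereas of the 1531 probe sets called between the parents with a log2 difference of at least 1 the lines test called 78.9%, and of the other 26204 it called 12.3%. ZIP5 was called in both tests. The line means of ZIP3 ran from 7.04 to 9.25 and those of ZIP4 from 7.65 to 9.43.

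**Figure D2:**
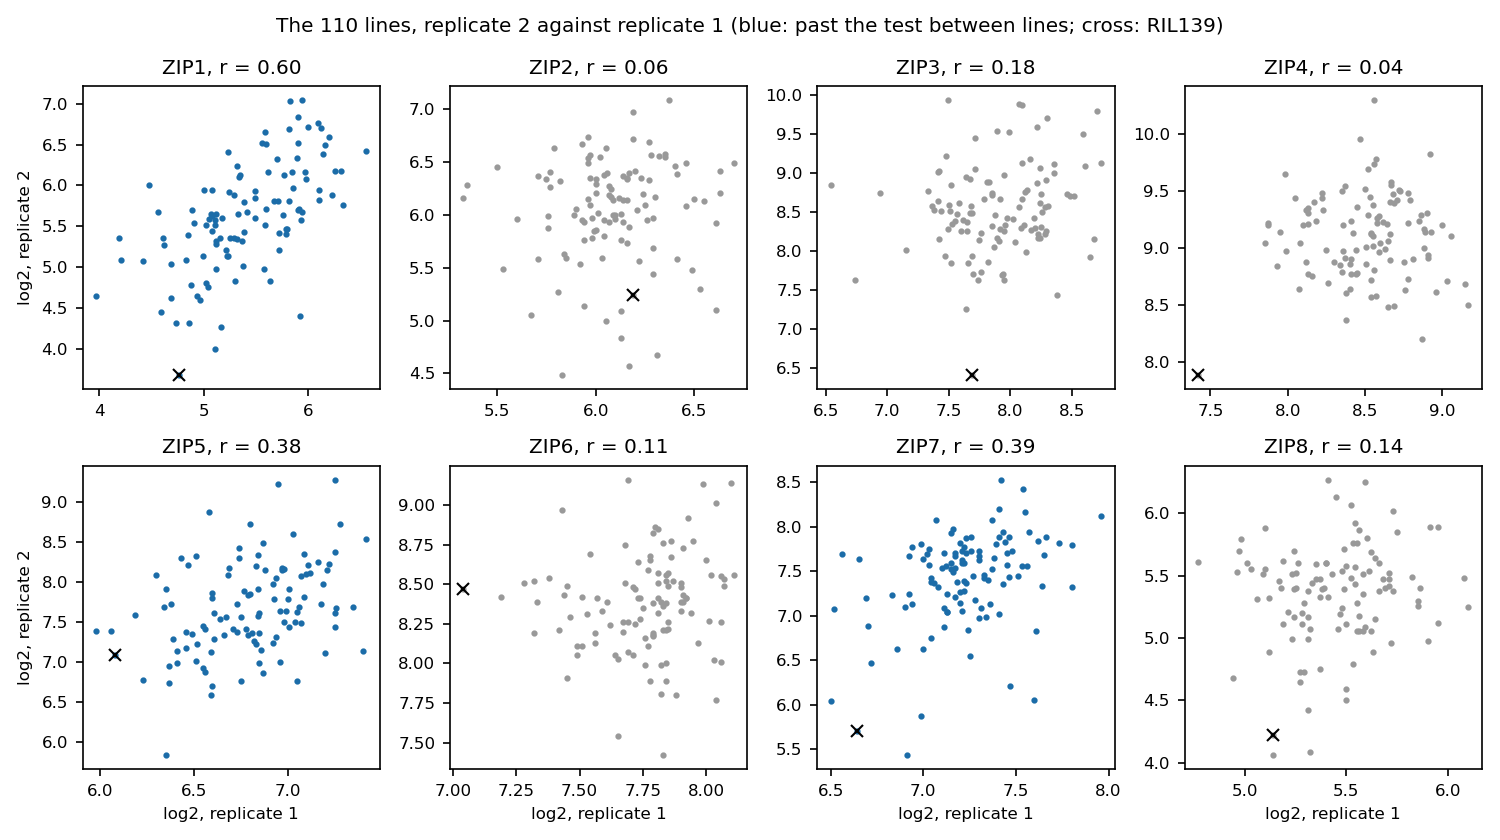
Log2 expression of each member in replicate 2 against replicate 1 for the 110 lines, 1 point a line, with Pearson r above each panel. The points of ZIP1 follow a slope (r = 0.60), those of ZIP5 and ZIP7 less closely (0.38 and 0.39), those of the other members hardly (0.04 to 0.18), and RIL139 lies at the low end of several panels.

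RIL139 had the lowest line mean of ZIP1 and also of ZIP3 (7.69 and 6.4 in replicates 1 and 2), ZIP4 (7.42 and 7.88) and ZIP7 (6.64 and 5.7). Its replicate 2 array had the highest 3′ minus 5′ signal of the lines, 3.25. Its replicate 1 array of ZIP4 was also the lowest of the 110. Without RIL139 the same 3 members were called between lines.

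The 3′ minus 5′ signal moved with several members in replicate 2, but how many other probe sets it moved with was not counted. Over 110 lines its Pearson r was -0.80 with ZIP2, -0.66 with ZIP7, -0.51 with ZIP8 and -0.50 with ZIP1, and 0.55 with ZIP6 (each adjusted p = 4.57e-05 over 32 relations of members with array measures, permutation test, rho between -0.67 and 0.59, r without the 2 lines farthest from the median between -0.82 and 0.56). The unadjusted p of each was 1e-05, the smallest that the permutations can give. ZIP5 (0.29, adjusted p = 0.00756, permutation test) and ZIP4 (-0.22, adjusted p = 0.0441, and r of -0.11 without the 2 farthest lines) also passed the threshold in replicate 2, and ZIP3 did not (0.01). In replicate 1 it was between -0.04 and 0.25, with ZIP2 (0.24, adjusted p = 0.0301, permutation test) and ZIP5 (0.25, adjusted p = 0.0268) past the threshold, and r of 0.13 and 0.15 for them without the 2 farthest lines. Read between one replicate number and the other it was between -0.07 and 0.13. ZIP5 and ZIP6 also fell with the median level of the array in replicate 2 (r of -0.58 and -0.60, adjusted p = 4.57e-05 each, permutation test; rho of -0.53 and -0.63), with r of -0.08 and 0.11 in replicate 1. ZIP3 rose with it in both replicates (r of 0.28 in each, adjusted p = 0.00909 each, permutation test; rho of 0.23 and 0.30). With the 3′ minus 5′ signal as a covariate within each replicate number, a setting chosen after seeing the data, the repeatability of ZIP1 was 0.70 (adjusted p = 6.48e-17, F test with the residual variance moderated by limma), that of ZIP7 0.37, that of ZIP5 0.35 and that of ZIP3 0.21 (adjusted p = 0.0458), so 4 of 8 members were called. In the 82 lines with no array above every replicate 1 array the same 3 members as before were called, ZIP1 with a repeatability of 0.71, ZIP7 with 0.42 and ZIP5 with 0.36.

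**Figure D3:**
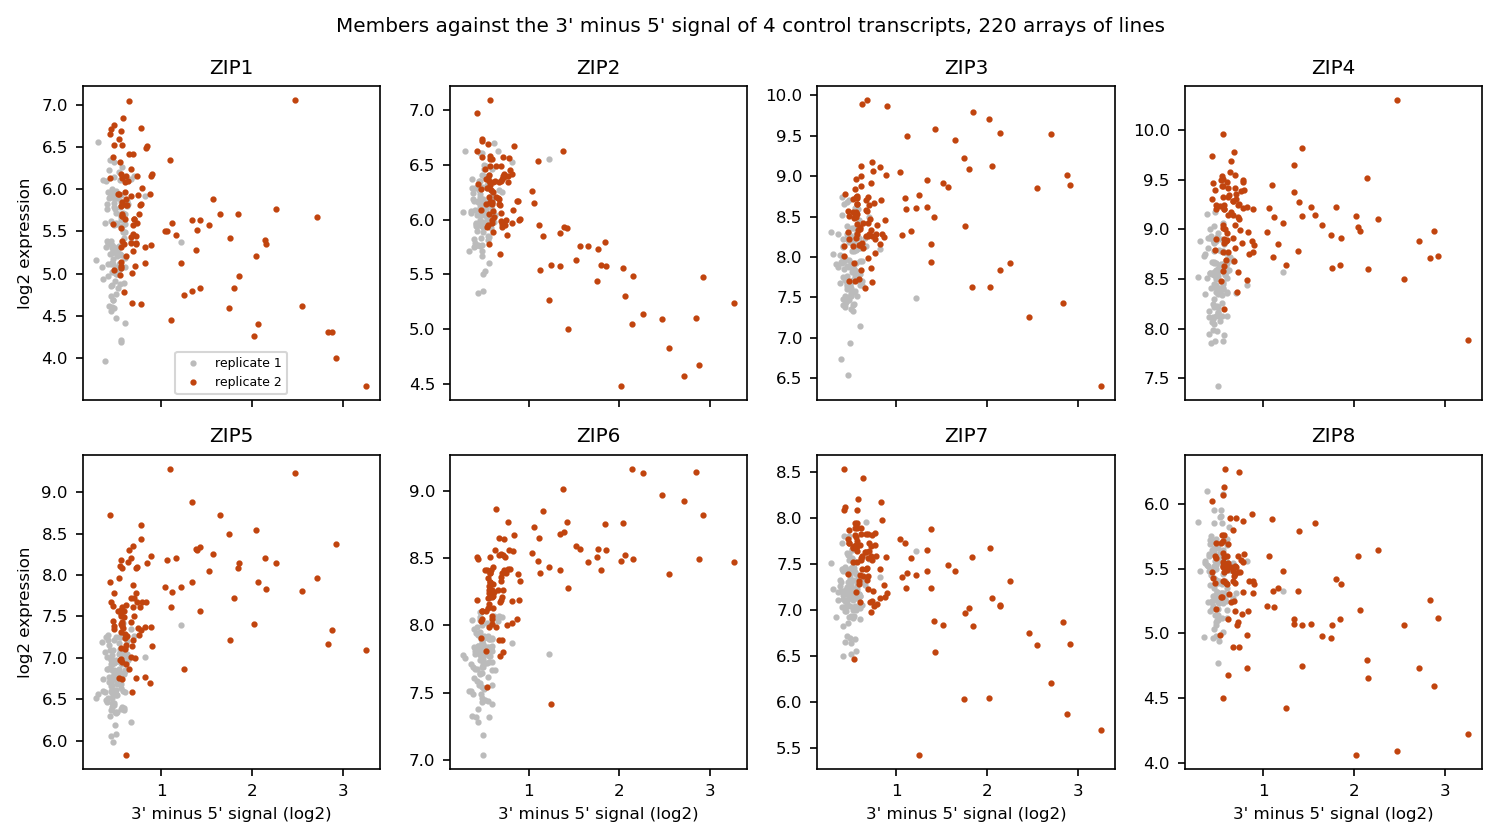
Log2 expression of each member against the 3′ minus 5′ signal (log2) on the 220 arrays of the lines, with replicate 1 in grey and replicate 2 in red. Replicate 1 arrays lie within 0.28 to 1.22, replicate 2 arrays reach 3.25, and along that stretch ZIP2, ZIP7, ZIP8 and ZIP1 run downward and ZIP6 upward.

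Levels also shifted as a whole between replicate numbers. Of the 8 members 6 were higher in replicate 2 and 1 was lower (limma on 110 paired differences), but 92.2% of all tested probe sets were called in this comparison (43.7% higher and 48.5% lower), so the count says little about the family. ZIP5 shifted by 0.87 on the log2 scale (SE 0.051, adjusted p = 3.95e-32, higher in 104 of 110 lines), ZIP3 by 0.63, ZIP6 by 0.62 and ZIP4 by 0.60, and ZIP1 and ZIP7 by 0.21 and 0.18. ZIP8 shifted by -0.10 (adjusted p = 0.0314) and ZIP2 by -0.06 (adjusted p = 0.279). With each array centred on its median ZIP8 and ZIP2 turned positive (0.11 and 0.15), so no direction is given for them. What the replicate number stands for is not given in the sources used here, and it cannot be told apart from any condition the arrays of one number share.

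For ZIP5 and ZIP6 the place of the lines beside the parents differed between replicate numbers. All 110 replicate 1 arrays of ZIP6 lay below every parent array, whereas in replicate 2 there were 25 below and 21 above. For ZIP5, 25 arrays in replicate 1 and 95 in replicate 2 lay above every parent array. ZIP8 had 17 above in replicate 1 and 16 in replicate 2. ZIP1 had 0 arrays above and 3 below every parent array in each replicate number, but its parent range is set by the unequal Zhenshan 97 arrays (4.28 to 9.04). The ZIP1 medians of the lines, 5.36 and 5.64, lay below every Minghui 63 array (lowest 6.84). They also lay below Zhenshan 97 replicates 2 and 3 (7.63 and 9.04). Parents and lines were not compared further.

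The third comparison asked which members vary together over the lines. For line values, the mean of both arrays after the mean of each replicate number was taken off, 11 of 28 pairs passed an adjusted p of 0.05 (permutation test with 100000 resamples, Benjamini-Hochberg over 28 pairs), all with a positive r, and the median r was 0.19. ZIP1 and ZIP7 had the highest value (r = 0.54, rho = 0.47, adjusted p = 9.33e-05, and r = 0.52 without the 2 lines farthest from the median of ZIP1). ZIP2 and ZIP7 followed (0.48), then ZIP4 and ZIP5 (0.42), ZIP7 and ZIP8 (0.41) and ZIP5 and ZIP6 (0.38). The share of pairs past the threshold among other tested probe sets was not counted. The counts of pairs here and below are therefore not read as a trait of the family. The number of tested probe sets with an r of at least 0.5 in each replicate ran from 0 for ZIP8 to 1103 for ZIP6.

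Most of these values did not carry over from one replicate to the other. When one gene was read in replicate 1 and its partner in replicate 2, so that no array was shared, the median r was 0.03, and 3 of 28 pairs passed: ZIP1 with ZIP7 (r = 0.24, adjusted p = 0.0176, permutation test), ZIP3 with ZIP6 (0.24, adjusted p = 0.0126) and ZIP3 with ZIP7 (0.20, adjusted p = 0.0387). ZIP1 with ZIP5 came next (0.20, adjusted p = 0.0574). ZIP1 with ZIP7 held within both replicates as well (0.48 and 0.61). ZIP3 with ZIP6 was 0.38 within replicate 1 and -0.11 within replicate 2, and ZIP3 with ZIP7 was 0.37 and -0.13. ZIP3 and ZIP6 were not called between lines, and each had a lower r between its own replicates (0.18 and 0.11) than with the other. An r across replicates is limited where a member repeats poorly, so low values of such members do not show that they vary apart. Without the 28 lines with a high 3′ minus 5′ signal none of the 28 pairs passed across replicates, with r of 0.23, 0.17 and 0.18 for the same 3 pairs over 82 lines (adjusted p = 0.0851, 0.159 and 0.159, permutation test) and 6 pairs at an unadjusted p under 0.05.

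Within one replicate the pattern of pairs differed between replicate numbers. In replicate 1 there were 16 of 28 pairs past the threshold, all positive, with ZIP1 and ZIP7 (0.48), ZIP2 and ZIP6 (0.47) and ZIP6 and ZIP7 (0.47) at the top. In replicate 2 there were 13, of which 2 were negative, with ZIP2 and ZIP7 (0.70), ZIP7 and ZIP8 (0.62), ZIP1 and ZIP7 (0.61) and ZIP5 and ZIP6 (0.59) at the top. ZIP2 and ZIP6 went from 0.47 in replicate 1 to -0.29 in replicate 2. Both are among the members that moved with the 3′ minus 5′ signal in replicate 2, ZIP2 downward and ZIP6 upward, and ZIP6 also fell with the array median (r of -0.60). With the 3′ minus 5′ signal taken out by regression within each replicate number, ZIP2 with ZIP6 was 0.45 and 0.29. In replicate 2, ZIP2 with ZIP7 then dropped from 0.70 to 0.38, and 17 of 28 pairs passed. Whether either array measure has a part in the pattern of pairs was not tested.

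**Figure D4:**
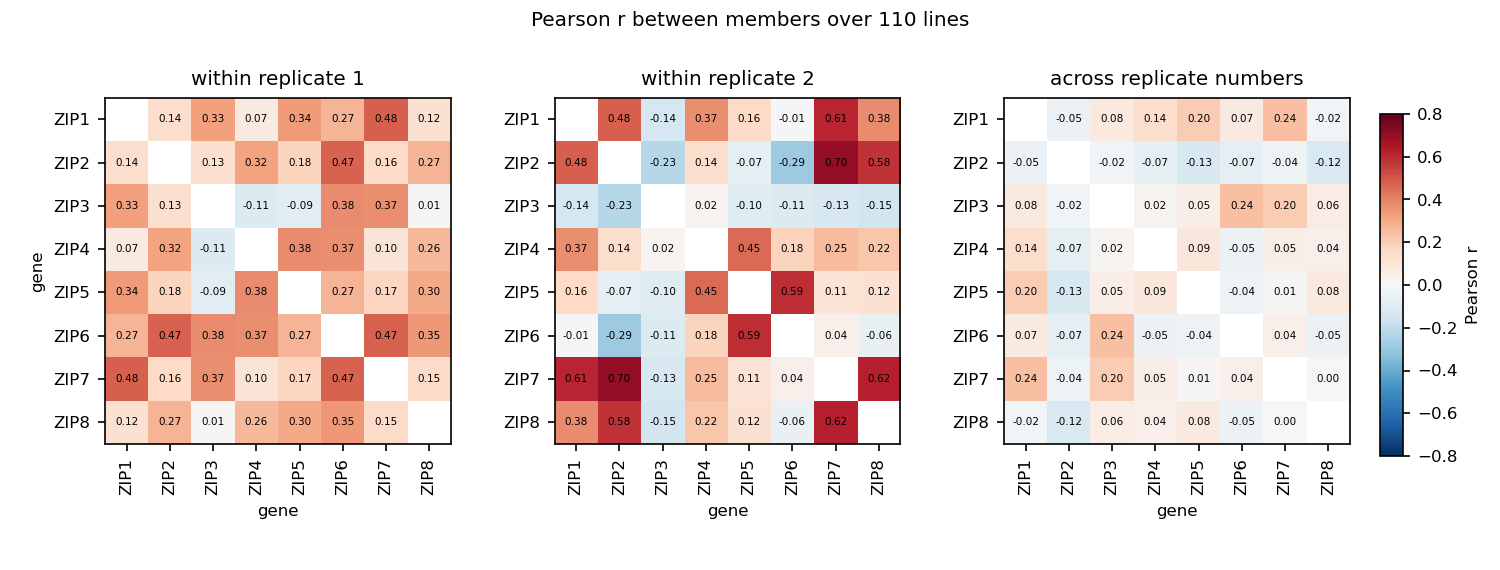
Pearson r over 110 lines between every pair of members within replicate 1, within replicate 2, and with the genes of a pair read in different replicate numbers; the colour scale runs from -0.8 to 0.8. The strong blocks around ZIP2, ZIP7 and ZIP8 in replicate 2 and around ZIP6 in replicate 1 are weak across replicate numbers, where no pair exceeds 0.24.

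Genes that follow a member over the lines were looked for by the same reading across replicates, with 1 probe set a gene and 14620 genes. For ZIP1, 18 of the 20 genes with the largest absolute r lay within 200 genes of ZIP1 itself in the gene order, a window that holds 0.917% of the genes considered. Neighbouring genes tend to be inherited together in such lines, so these 18 are not separate findings. The share of genes in the window is therefore no test of their number. ZIP1 is close to one end of chromosome 1, with 49 genes listed after it. For 17 of the 20 r was negative with the probe set kept, but the sign can differ between probe sets of a gene. LOC4324311, for example, had r of -0.434 with the probe set kept and 0.145 with another. In 16 of the 20 genes the line means had no empty stretch of at least 1 log2 unit, and their absolute r ran from 0.30 to 0.60. Among them were UMPS2 (r = 0.42), which carries out the last steps of uridine monophosphate synthesis, and COQ5 (-0.35), of ubiquinone synthesis. The r of -0.60 belonged to LOC4324011 and LOC4324306, whose line means had gaps of 0.62 and 0.67, so it may be largely a contrast between groups of lines. All 20 genes were chosen by their values and have no test here.

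For the other 4 the line means fell into separate groups, with an empty stretch of at least 1 log2 unit between them, so no r over all lines is given. LOC4324010, with 33 genes between it and ZIP1, headed the list. Its line means lay between 2.99 and 4.06 in 57 lines and between 7.06 and 8.22 in 53, with parental means of 3.35 in Minghui 63 and 7.28 in Zhenshan 97 and a repeatability of 0.98. Within each of these groups r with ZIP1 across replicates was 0.01 and -0.15. LOC4324008, LOC4325244 and EIL1, an ethylene signalling transcription factor gene that the table places on chromosome 3, split the lines into groups of the same sizes, with r between -0.08 and 0.18 inside them. A second probe set of LOC4324010 ran the other way, also in the sign of its r with ZIP1. It had 8.54 in Minghui 63 and 2.64 in Zhenshan 97 and a repeatability of 0.98. A further probe set of this gene hardly differed between the parents (7.17 and 6.86, repeatability -0.02). For ZIP1, which has 1 probe set, a sequence difference under the probes and a difference in transcript level cannot be told apart.

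The same stretch of chromosome 1 came up for ZIP5 and ZIP7, which lie on chromosome 5. Of the 20 genes that followed ZIP5 most closely 8 lay within 200 genes of ZIP1, and of those that followed ZIP7 there were 7, against 0.923% of all genes. None lay within 200 genes of ZIP5 or of ZIP7 themselves. As for ZIP1, neighbouring genes of a single stretch are not separate findings, here and in the counts below. LOC4324010 headed the list of ZIP5 and came second for ZIP7, where EIL1 came first. Inside its groups of lines LOC4324010 had r of -0.10 and -0.10 with ZIP5 and of 0.20 and -0.20 with ZIP7. ZIP2, ZIP3, ZIP4 and ZIP6 had 0 of 20 in the window around ZIP1 and ZIP8 had 2. ZIP8 and ZIP4, though not called between lines, each had 6 of 20 within 200 genes of their own place (background 0.869% and 0.8%), among them NRAMP5, a manganese and cadmium uptake carrier, for ZIP8 (r = 0.29, 103 genes between them). ZIP6 had 3 of 20 near its own place (background 1.17%). Among listed genes without separate groups of lines, absolute r was at most 0.40 for ZIP8, 0.29 for ZIP6 and 0.27 for ZIP4. The last 2 values belong to LOC4332381 on chromosome 3 and LOC4351265 on chromosome 12, not to genes near ZIP6 or ZIP4. Of the 20 genes, 5 for ZIP4, 2 for ZIP6 and 1 for ZIP8 split the lines into separate groups. Inside those groups r was between -0.15 and 0.21.

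**Figure D5:**
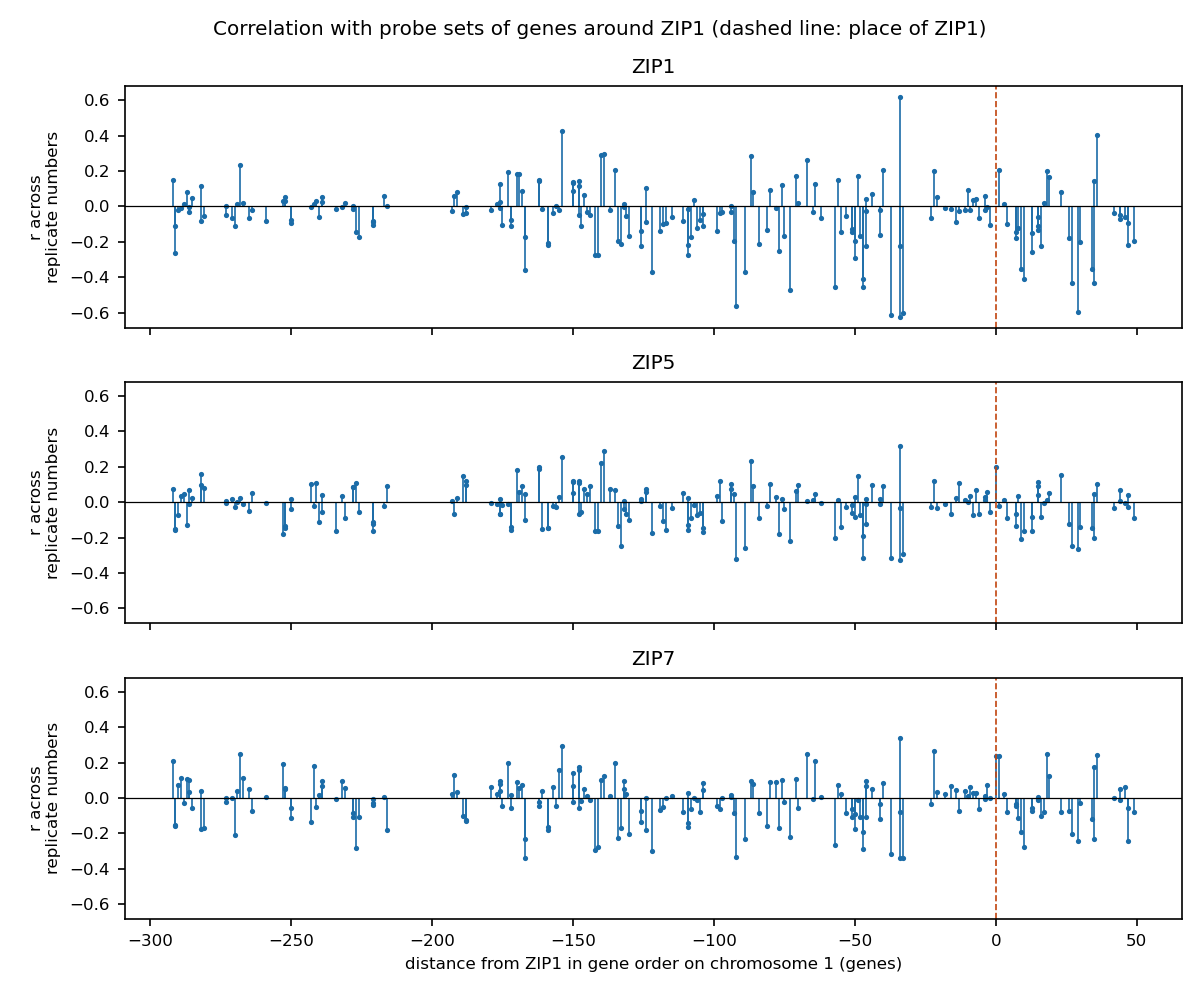
Pearson r over 110 lines, read across replicate numbers, of ZIP1, ZIP5 and ZIP7 with each tested probe set of genes near ZIP1 on chromosome 1; the horizontal axis is the distance from ZIP1 in gene order, and the chromosome ends 49 genes after it. Of the 20 genes that follow each member most closely over the whole genome, 18 for ZIP1, 8 for ZIP5 and 7 for ZIP7 lie within 200 genes of ZIP1.

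Likeness was also read on shared arrays, as the lower of the r within replicate 1 and within replicate 2. By this measure the named genes most like ZIP1 were ZIP7 (0.48), the bHLH transcription factor gene RAI1 (0.44) and the peptide hormone gene PSK4 (0.39). Those most like ZIP7 were LYP4, a receptor for peptidoglycan and chitin (0.66), and the cell wall expansins EXPA2 (0.60) and EXPB11 (0.60). Those most like ZIP5 were HCT3 (0.64), GT4 (0.51) and RCABP69 (0.48). Read across replicates, where no array is shared, r for these 9 pairs was lower, at 0.14 to 0.25.

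Other metal transport genes were counted by the same tests. The iron-regulated relatives IRT1 and IRT2, which belong to the same family and take up ferrous iron, were both called between lines with repeatabilities of 0.68 and 0.74, against 16% of all tested probe sets called. Between the parents no comparison is drawn for them, since the parental means of IRT1 (3.94 in Minghui 63 and 4.34 in Zhenshan 97) and the Zhenshan 97 mean of IRT2 (3.96) lie within the range of the tag controls. Their line means ran from 3.92 to 8.25 and from 3.86 to 10.02. Across replicates their r with the 8 members was between -0.26 and 0.02, the lowest with ZIP7. Of 14 metal pumps and carriers with a probe set, 12 reached a mean of 5 and were tested. Between lines 4 of these 12 were called, NRAMP1 (repeatability 0.80), VIT2 (0.67), NRAMP5 (0.57) and NRAMP4 (0.30). Between the parents 3 were higher in Zhenshan 97 (background 5.59%). Of 24 genes of nicotianamine and phytosiderophore synthesis and transport with a probe set, 17 were tested in the same way. Between lines 8 of these 17 were called, with NAAT1 (0.81), NAS2 (0.72), NAS1 (0.70) and YSL6 (0.68) at the top. Between the parents 1 was higher in Minghui 63 (background 4.93%) and 2 in Zhenshan 97. Of 2 regulators, BHLH063 (0.54) was called between lines and IDEF1 was not. Of 7 metallothionein genes, which encode small metal-binding proteins, 4 were called between lines, MT4A (0.53), MT4C (0.38), MT1B (0.36) and MT2B (0.27), and 3 were higher in Zhenshan 97. With no replicate block 2 of the 12 pumps and carriers, 6 of the 17 nicotianamine and phytosiderophore genes, 1 of the 2 regulators and 1 of the 7 metallothionein genes were called between lines (background 6.01%), and NRAMP1 (adjusted p = 0.0755, moderated F test), NRAMP4 (1.0), MT4C (1.0), MT1B (1.0) and MT2B (0.444) were among those not called. The median repeatability of these lists, in the order given, was 0.71, 0.1, 0.22, 0.26 and 0.27, against 0.06 over all tested probe sets. Whether the lists differ from the ZIP members was not tested.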

How the data were processed

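Shoot RNA of 110 recombinant inbred lines and 2 parents was measured on 226 Affymetrix arrays. The tools named in the submitters' processing notes are RMA and affy; no version or setting of theirs is recorded there. Values as deposited are log2 levels per probe set and array (1.16 to 14.35, array medians 4.77 to 5.07) and were used as given; the number of arrays limits the precision. Control probe sets (123 and 64) and probe sets with a mean under 5 were left out, leaving 27735 tested out of 57194. A single gene was annotated for 22436 probe sets, more than one for 95 and no gene for 34850; names, chromosomes and gene order came from the reference table of assembly ASM3414082v1, whose build is not that of the array.

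The members, the gene lists and the tests were chosen with earlier results of these data known. Parents were compared with limma 3.58.1 in R 4.3.3 on the 6 parent arrays, lines with an F test with replicate number as a block and the residual variance moderated by limma, and replicate numbers with limma on paired differences, each with Benjamini-Hochberg adjustment over all tested probe sets and a threshold of 0.05. The block for the lines takes out the shift between replicate numbers; parent arrays with the same number did not deviate together (r of -0.307, -0.066 and -0.391), so no block was used there. Correlations used 100000 permutations of lines. On simulated data a parental log2 difference of 1 was called for 11% of probe sets and one of 2 for 82%, and a line share of 0.3 for 32% and one of 0.6 for 100%. The simulated noise had the spread found within lines and was equal in both parents. Real parents can differ in spread, as for ZIP1 with an SD of 0.1 in Minghui 63 and 2.45 in Zhenshan 97. The simulated rates for the parents therefore do not hold for such members. Named genes are every member, the 3 named genes most like each member called between lines, and up to 4 called genes a list; genes that follow a member across replicates, COPT1 and the other genes that differ between Zhenshan 97 arrays were chosen after their values were seen. The list entries TOM1, TOM2 and BZIP50 were left out because the matched genes are others. Python 3.11.15 with numpy 2.4.6, pandas 2.3.3, scipy 1.17.1 and matplotlib 3.10.9 was used.

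The alternatives were leaving out each parent array, a replicate block for the parents, all 226 arrays in one fit, arrays centred on their medians, other filters on low values, no block for the lines, leaving out 10 lines at a time, lines in doubt or near-identical lines, Spearman correlation, and, added after seeing the data, the 3′ minus 5′ signal as a covariate, leaving out lines with a high 3′ minus 5′ signal, and leaving out RIL139.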

Additional observations from a re-analysis of the deposited data

How the results depend on the processing

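Between the parents the 3 called members became 0 to 4 when 1 array was left out (0 without Minghui 63 replicate 2, where 5 had an unadjusted limma p under 0.05), and the count over all tested probe sets went from 2917 to between 1164 and 3146. With all 226 arrays in the fit 1 member was called, ZIP2 (adjusted p = 7.05e-05, limma), with 1393 over all tested probe sets, and ZIP3, ZIP4 and ZIP5 lost the call (adjusted p = 0.108, 0.0668 and 0.504). With the replicate block of the parents, whose numbers do not pair them, ZIP4 lost the call (adjusted p = 0.089), 2 members remained and 934 tested probe sets were called. Without Zhenshan 97 replicate 1, ZIP2 and ZIP8 gained it (adjusted p = 0.00594 and 0.0463), and with arrays centred ZIP8 did (0.0422). Over these settings ZIP3 lay between 1.17 and 1.54, ZIP4 between -1.61 and -1.12, ZIP5 between -1.20 and -0.94 and ZIP2 between -2.36 and -1.23, while ZIP1 ran from -1.38 to 1.0 and changed sign without Zhenshan 97 replicate 2 (0.29) or 3 (1.0) and without Minghui 63 replicate 3 (0.03). The cause was not tested.

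Between the lines ZIP1 kept its call in all 19 alternatives that held it (repeatability 0.54 to 0.71), ZIP7 in all 20 (0.24 to 0.42) and ZIP5 in 19 of 20, the exception being the fit with no replicate block (-0.30). ZIP3 gained it with the 3′ minus 5′ covariate. The count over all tested probe sets was 4430, 1668 with no replicate block and 2462 among probe sets with a mean of at least 7, where fewer are tested (15110). Between replicate numbers ZIP2 and ZIP8 changed sign with centred arrays (0.15 and 0.11) and without lines with a high 3′ minus 5′ signal (0.15, and 0.03 with an adjusted p of 0.447), and 4 of 11 fits that left out 10 lines lost the call of ZIP8. Without a filter 51969 probe sets were called between replicate numbers, and 13793 with a mean of at least 7.

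Of 28 pairs 11 were called over line values, 13 to 16 within 1 replicate number, 3 across replicate numbers, 3 across them with centred arrays, 4 across them and 13 over line values with the 3′ minus 5′ signal taken out, and 7 over line values and 0 across replicates without lines with a high 3′ minus 5′ signal (6 at an unadjusted permutation p under 0.05). Among these 11 pairs, the sign changed across replicates for ZIP1 with ZIP2 (-0.05), ZIP2 with ZIP7 (-0.04), ZIP2 with ZIP8 (-0.12) and ZIP5 with ZIP6 (-0.04), and within replicate 2 for ZIP3 with ZIP6 (-0.11, against 0.38 within replicate 1). With 3 parental arrays a group and 2 a line, differences near 1 and line shares near 0.3 were mostly missed on simulated data. In these data both parents had the spread found within lines. A member that was not called may therefore still differ.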

Other observations

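ZIP1 was not alone in differing between the Zhenshan 97 arrays. Of all tested probe sets it had the 3rd largest rise from Zhenshan 97 replicate 1 to replicate 3 (4.76 on the log2 scale), and the named gene next to it was COPT1, a copper transporter gene, at 7.4, 11.37 and 11.76 against a mean of 7.87 in Minghui 63. At the other end were the dehydrin and late embryogenesis genes RAB16B (12.1, 10.71 and 6.03), RAB16D (11.87, 9.56 and 6.81) and EM (10.21, 10.37 and 4.79), and the small heat shock gene HSP18.6 (9.69, 7.8 and 5.17), with means of 7.83, 5.57, 5.96 and 5.43 in Minghui 63. These genes were picked for their difference between single arrays of one group, so the values are a description with no test.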
